A study of Caenorhabditis elegans with 6 samples.

Results

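Levels are described here for 10 genes that encode the inner machinery of Wnt signalling in the nematode Caenorhabditis elegans, out of 46932 genes in the count table. They are the signalling beta-catenins bar-1, wrm-1 and sys-1, the TCF transcription factor pop-1, the Axin scaffolds pry-1 and axl-1, the APC homologue apr-1, and the kinases gsk-3 (GSK3), kin-19 (CK1) and lit-1 (Nemo-like kinase). The genes were chosen by name, and all 10 were found by their WormBase identifiers. RNA was sequenced from cells that had been sorted out of pooled young adult male offspring by FACS and carry the label vir & rep, for rectal valve and rectal gland. Wild type is the strain with the tagged allele gfp::sl2::2xflag::aid::csr-1a (3 libraries). The mutant has gfp::sl2::2xflag::aid::csr-1a_delta in its place (3 libraries). The gene csr-1 encodes an Argonaute, a protein that binds small RNAs. Both groups also carried him-8, which raises the share of males, and extrachromosomal arrays in which the pnc-1 and pcs-1 promoters drive the red protein wrmScarlet. The parents of all animals had been heat-stressed as late L4 larvae, so no unstressed group stands beside these. A library was made from 5000 cells. Replicates are titled as biological ones, but separate cultures are not named, so p-values measure the spread between these libraries. The question given for the study is how the csr-1a mutation changes the shape of the tail.

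In Wnt signalling, a destruction complex built on Axin and APC holds the kinases GSK3 and CK1 against beta-catenin and marks it for removal. A Wnt signal disables that complex, and beta-catenin then enters the nucleus and turns TCF from a repressor into an activator of target genes. In C. elegans BAR-1 works in this way with POP-1. In the other branch, the asymmetry pathway of dividing cells, WRM-1 and the kinase LIT-1 send POP-1 out of the nucleus while SYS-1 serves as its coactivator. This asymmetry branch sets the polarity of blast cell divisions in the tail, those of the male tail included. Much of the control acts on protein stability and place in the cell, which RNA counts do not measure.

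The libraries held 17748698 to 47890863 counts. Ribosomal RNA took 74.4% to 78.4% of them, which left 4542195 to 11541671 counts for other genes, and 3332 to 8471 counts per library for the 10 genes together. Wild-type replicate 3 and mutant replicate 2 had the fewest genes with a count, 14012 and 12757 against 18071 to 19083 in the other libraries. The level of csr-1 was 185, 209 and 266 CPM (counts scaled to library size) in wild type and 185, 157 and 153 CPM in mutant libraries, a log2 fold change of -0.42 ± 0.17 (SE) with an adjusted p of 0.213. Counts per gene do not separate the a isoform, so this does not check the genotype. Several markers of the rectal and hindgut list were scarce. That list is not specific to the valve and gland cells of the label, so it does not measure their share. Of the defining pair, egl-38 stood at 0.428 and 0.304 CPM and lin-48 at 0.436 and 0.581 CPM on average in wild type and mutant, and the further marker mab-9 had 1, 2 and 0 counts in wild type and 0 in every mutant library. The remaining markers of the list averaged, in wild type and mutant, 0.409 and 0.857 CPM (pax-3), 1.54 and 2.92 (egl-5), 9.79 and 8.06 (cdh-3), and 33.3 and 32.8 (ajm-1). The genes pnc-1 (7.17 and 22.9 CPM) and pcs-1 (13.3 and 30.3 CPM), 2 of the 7 tested, were higher in the mutant. The 9 rectal and hindgut markers summed to 0.0229% to 0.0289% (wild type) and 0.0370% to 0.0485% (mutant) of counts other than ribosomal RNA. In wild type ajm-1 had the highest counts of the list (715, 681 and 605). The 6 coelomocyte markers took 1.63% to 1.67% in wild type and 0.748% to 1.14% in the mutant. The 10 body wall muscle markers took 0.247% to 0.301% in wild type and 3.37% to 7.34% in the mutant, with the highest share in mutant replicate 1. All 10 muscle markers were higher and all 6 coelomocyte markers lower in the mutant (adjusted p under 0.05), and their part in the results below was not tested. In bulk RNA, fewer cells of a type and less RNA per cell cannot be told apart.

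The kinases were by far the most abundant of the 10 genes and the beta-catenins bar-1 and sys-1 among the scarcest, in both groups. Levels of different genes are compared as CPM per kilobase of exon, which removes the effect of gene length. The casein kinase gene kin-19 led in wild type with 54.7 ± 2.56 CPM per kb (SD, n = 3), followed by gsk-3 with 15.8 ± 1.28 and lit-1 with 7.54 ± 0.712. These steps were clear, since the 3 libraries of each gene did not overlap with those of the next. After lit-1 the levels dropped by a factor of 3.12 to a middle group of wrm-1 (2.42 ± 0.160 CPM per kb), apr-1 (2.12 ± 0.360), pop-1 (1.77 ± 0.555) and pry-1 (1.58 ± 0.292), in which each neighbour overlapped with the next. The coactivator gene sys-1 lay below them without overlap at 0.652 ± 0.0684 CPM per kb, and its range met that of axl-1 (0.341 ± 0.276), which overlapped with bar-1 (0.230 ± 0.202). In the mutant the same 3 kinases led with 47.1 ± 6.90, 15.6 ± 1.22 and 7.85 ± 0.537 CPM per kb, again without overlap. The genes that changed places in the mutant, pry-1 with pop-1 and bar-1 with axl-1, overlapped in both groups. By level per length kin-19 ranked 336, gsk-3 1149 and lit-1 2486 among 11961 tested genes outside ribosomal RNA in wild type, while sys-1 ranked 9901 and bar-1 11575.

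**Figure D1:**
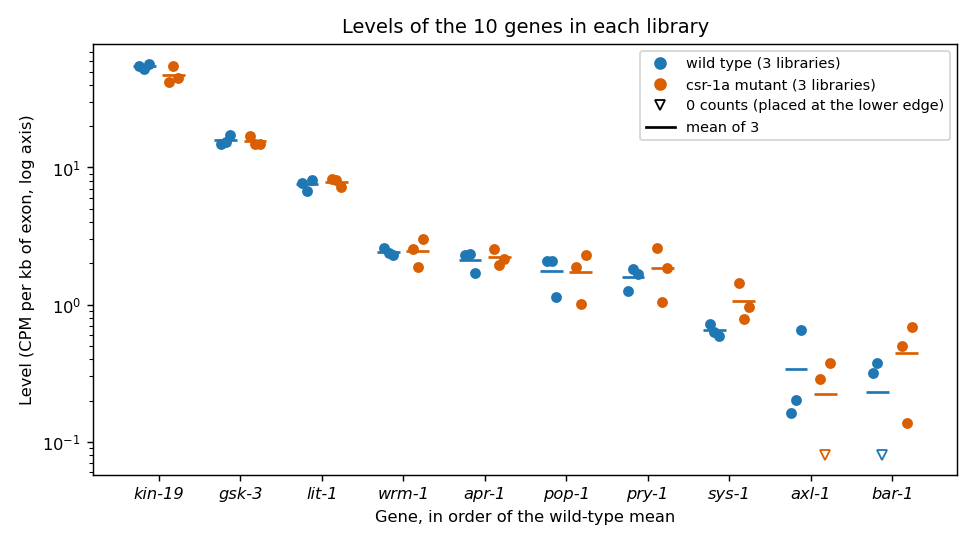
Level of each of the 10 genes in CPM per kb of exon on a log axis, with 1 point per library (3 wild type in blue, 3 csr-1a mutant in orange), bars for the group means and triangles for libraries with 0 counts. The kinases kin-19, gsk-3 and lit-1 stand above the other 7 genes in every library, and bar-1 and axl-1 each have 1 library at 0 counts.

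**Figure D2:**
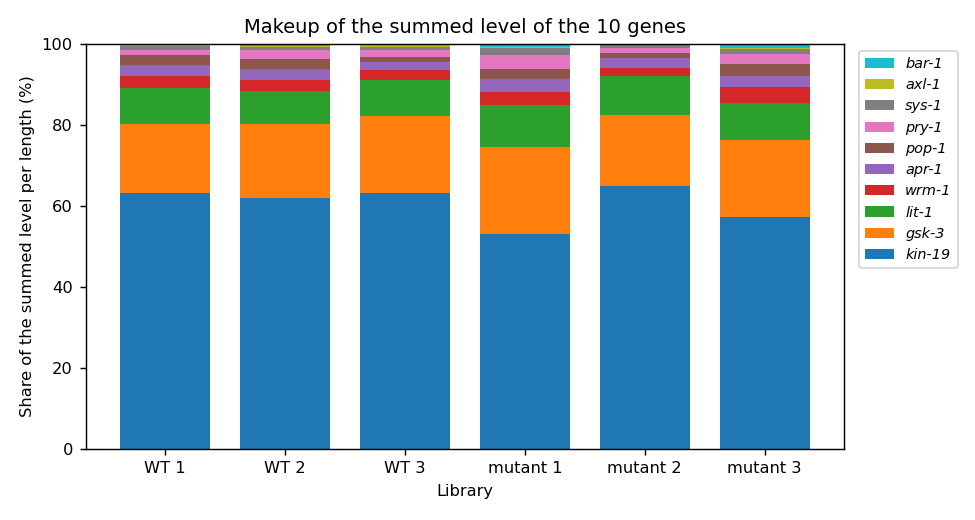
Share of the summed level per length (in %) taken by each gene in each of the 6 libraries, stacked to 100%. The band of kin-19 takes 62.0% to 63.1% in wild type and 53.0% to 64.9% in the mutant.

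Summed over the 10 genes, the level per length was 84.1 to 90.7 CPM per kb in wild type and 78.3 to 84.6 in the mutant, ranges that overlap. The 3 kinases made up 88.3% to 91.1% of that sum in wild type and 85.0% to 92.0% in the mutant. The 3 signalling beta-catenins together took 3.17% to 4.19% and 3.30% to 5.94%. The TCF gene pop-1 took 1.25% to 2.49% and 1.205% to 2.96%, the Axins 1.63% to 2.57% and 1.23% to 3.67%, and apr-1 1.88% to 2.80% and 2.30% to 3.21%. The ranges of these role sums overlapped between the groups. Of single genes, lit-1 took 8.05% to 9.01% in wild type and 9.24% to 10.5% in the mutant, and sys-1 took 0.654% to 0.838% and 0.923% to 1.84%, in both cases without overlap. In CPM the groups of lit-1 overlapped and those of sys-1 did not, where 24.8% of all tested genes had groups without overlap. Shares sum to a fixed total, so a lower share of kin-19 goes with higher shares elsewhere. The share of kin-19 was lowest in mutant replicate 1, at 53.0%, the library with the highest share of muscle markers, and was 64.9% and 57.2% in mutant replicates 2 and 3.

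None of the 9 genes that passed the filter on low counts changed between mutant and wild type, where 5.59% of all 11968 tested genes did (edgeR's quasi-likelihood test, Benjamini-Hochberg adjusted p under 0.05). At an unadjusted p under 0.05 the count was also 0 of 9, against 16.9% of all tested genes, and DESeq2 and limma-voom called 0 as well at an adjusted p under 0.05. The gene axl-1 had too few counts to be tested. The median log2 fold change of the 9 genes was 0.06, and that of all tested genes 0.01. The median size of the change without its sign was 0.06 against 0.44. The 9 genes were also more abundant, with a median wild-type level of 6.75 CPM against 3.18 CPM. Their median standard error was 0.29 against 0.46. Sizes of change and widths of interval depend on level, and neither was compared with genes of like level. A change that misses the threshold is not shown to be absent, so the 95% interval of each change is given below. For 6 of the 9 genes (wrm-1, pop-1, apr-1, gsk-3, kin-19 and lit-1) the whole interval lay within 2-fold in either direction, as it did for 26.2% of all tested genes. For bar-1, sys-1 and pry-1 the interval reached past a 2-fold rise, and for bar-1 also past a 2-fold fall (fold 0.310 to 11.5).

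**Figure D3:**
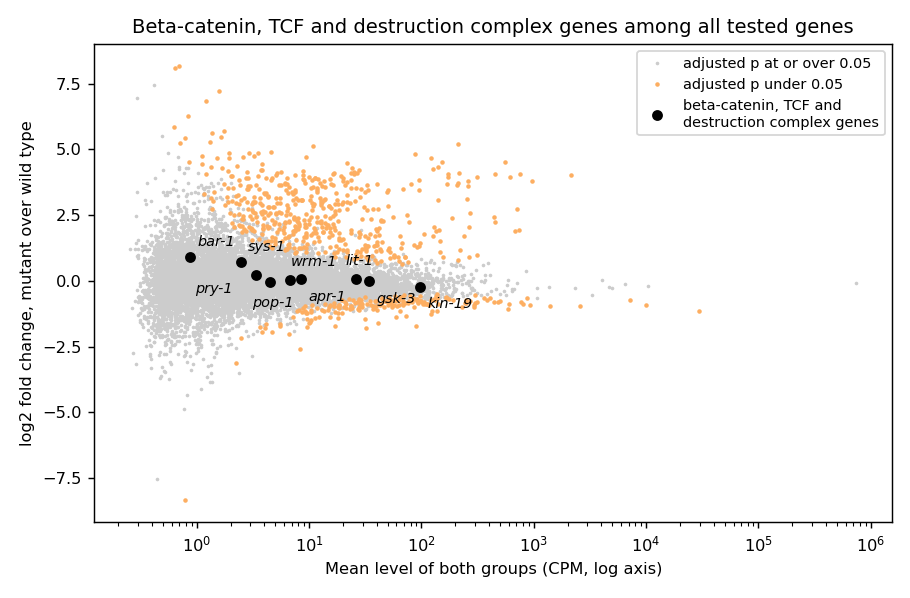
Log2 fold change (mutant over wild type) against the mean level of both groups in CPM on a log axis for 11968 tested genes, with genes past an adjusted p of 0.05 in orange and the 9 tested genes named. All 9 lie in the grey cloud, bar-1 and sys-1 highest at 0.92 and 0.71.

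The beta-catenin genes bar-1 and sys-1 had the largest fitted changes of the 9 tested genes, with wide errors, while the third, wrm-1, had one of the smallest. The gene bar-1 (WBGene00000238, WBcel235 chromosome X, 7166005 to 7170625, minus strand) encodes the beta-catenin of the destruction complex branch and was barely detected. It stood at 0.823, 0.970 and 0 CPM in wild type (20, 19 and 0 counts) and at 1.30, 0.356 and 1.77 CPM in the mutant (62, 9 and 40 counts). The count of 0 in wild-type replicate 3 allows a level of up to 0.177 CPM, counting error only. The groups overlapped, and the lowest library of each was the library with the fewest genes detected. Its log2 fold change was 0.92 ± 1.18 (adjusted p = 0.806), and the 95% interval ran from a fold of 0.310 to 11.5.

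The gene sys-1 (WBGene00006379, chromosome I, 9980063 to 9984794, minus strand), the coactivator that pairs with POP-1, had 2.10, 1.84 and 1.71 CPM in wild type and 4.18, 2.25 and 2.79 CPM in the mutant. All mutant libraries lay above all wild-type libraries, the only such case among the 9 genes, where 24.8% of all tested genes had groups that did not overlap (12.6% higher and 12.2% lower in the mutant). The value of mutant replicate 1 stood well above the rest, and that library also had the highest muscle marker share; the part of muscle content in the value was not tested. The log2 fold change was 0.71 ± 0.45 (adjusted p = 0.510, 95% interval of the fold 0.823 to 3.25). Without mutant replicate 1 it was 0.43, and over all alternatives it ranged from 0.43 to 0.95 with adjusted p from 0.304 to 0.825.

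The gene wrm-1 (WBGene00006943, chromosome III, 5722850 to 5727115, plus strand) encodes the beta-catenin that acts with LIT-1. It had 7.24, 6.63 and 6.37 CPM in wild type and 7.14, 5.22 and 8.37 CPM in the mutant, so the wild-type values lay inside the mutant range. Its log2 fold change was 0.03 ± 0.29 (adjusted p = 0.980, 95% interval of the fold 0.659 to 1.59). The sign turned when replicate 3 of either group was dropped (-0.02 for the wild-type and -0.08 for the mutant library). Its wild-type libraries differed by a coefficient of variation of 6.60%, where the median of tested genes within 2-fold of its level was 21.7%. That value lies below the 8.51% that counting error alone would give, so it does not show a tightly held level. In the mutant the coefficient of variation of wrm-1 was 22.99%, against a median of 25.99% in genes within 2-fold of its level.

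The TCF gene pop-1 (WBGene00004077, chromosome I, 2822243 to 2830311, minus strand), on which both branches converge, stood at 5.35, 5.36 and 2.89 CPM in wild type and at 4.85, 2.61 and 5.94 CPM in the mutant. In each group 2 libraries lay close together and the third, the library with the fewest genes detected, was far lower. The log2 fold change was -0.03 ± 0.41 (adjusted p = 0.989, 95% interval of the fold 0.527 to 1.83). With both of those libraries left out it was 0.04. The sign also turned when single libraries were dropped, to 0.16 and 0.10 for wild-type replicates 1 and 2 and to 0.29 for mutant replicate 2, and with library totals alone (0.05), where the median of all tested genes stood at 0.11.

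Low values in those libraries were shared by several of the genes. The genes bar-1, wrm-1, sys-1, pop-1 and apr-1, 5 of the 9 tested, had their lowest value of each group in wild-type replicate 3 and in mutant replicate 2. The same held for 19.1% of all tested genes and for 20.4% of the tested genes with a wild-type mean of 0.5 to 10 CPM. This pattern was noticed in the data, and no test was made of it. All 3 kinases had their highest wild-type value in replicate 3. In the mutant, replicate 2 held the highest value of kin-19, the middle one of lit-1 and the lowest of gsk-3 (32.27 against 32.43 and 36.9 CPM).

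**Figure D4:**
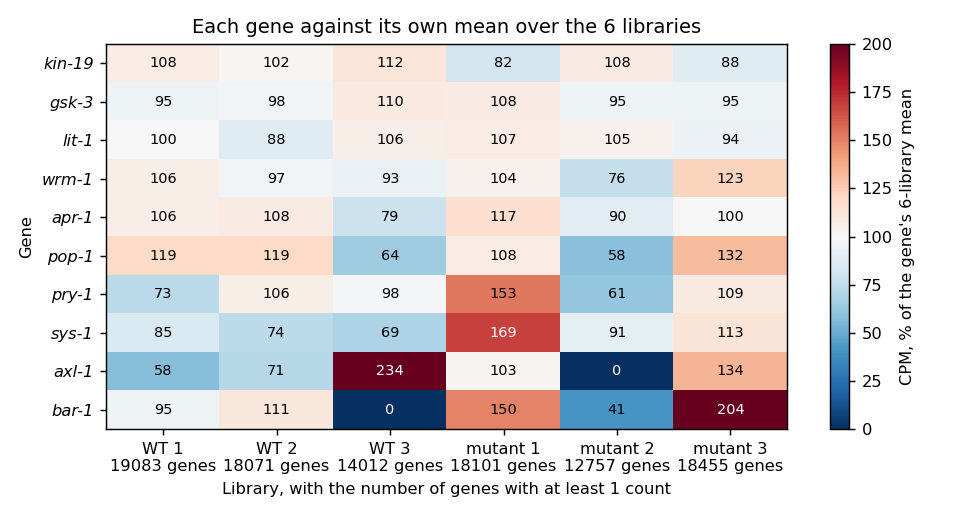
Level of each gene in each library as a percentage of its own mean over the 6 libraries, with the number of genes detected under each library. The kinase rows stay between 82% and 112%, while pop-1 falls to 64% in wild-type replicate 3 and 58% in mutant replicate 2, and sys-1 reaches 169% in mutant replicate 1.

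Among the scaffolds of the destruction complex, pry-1 (WBGene00004202, chromosome I, 14172828 to 14179360, minus strand) encodes the main Axin, which gathers the kinases and beta-catenin. It had 2.47, 3.57 and 3.30 CPM in wild type and 5.14, 2.06 and 3.68 CPM in the mutant. The mutant values spread on both sides of the wild-type range (coefficient of variation 42.6% against 18.5%). The log2 fold change was 0.23 ± 0.43 (adjusted p = 0.880, 95% interval of the fold 0.606 to 2.26), and without mutant replicate 1 it was -0.10. On the reference annotation 180 bp of its exons are shared with C37A5.11, which had 46 counts over all 6 libraries.

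The other Axin gene, axl-1 (WBGene00010497, chromosome I, 8513900 to 8517535, plus strand), was at the edge of detection. It had 6, 6 and 17 counts in wild type (0.247, 0.306 and 1.003 CPM) and 21, 0 and 13 in the mutant (0.441, 0 and 0.576 CPM). The 0 of mutant replicate 2 allows up to 0.119 CPM. The groups overlapped, and when no filter on low counts was applied the log2 fold change was -0.53 ± 1.66 (adjusted p = 0.938). Without wild-type replicate 3 and mutant replicate 2, the libraries of fewest genes, it was 0.90 ± 0.94 (adjusted p = 0.733). Of its exons 83 bp are shared with tnsl-1 on the opposite strand, a gene with 1174 counts, and since the strand setting of the counting is not given, part of the few axl-1 reads could belong to tnsl-1.

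The APC gene apr-1 (WBGene00000156, chromosome I, 8050037 to 8055475, plus strand), which serves in the destruction complex and also in the asymmetry branch, had 9.01, 9.19 and 6.67 CPM in wild type and 9.88, 7.59 and 8.46 CPM in the mutant. The groups overlapped, with the highest value in mutant replicate 1 and the lowest in wild-type replicate 3. The log2 fold change was 0.06 ± 0.26 (adjusted p = 0.958, 95% interval of the fold 0.699 to 1.56). Dropping wild-type replicate 3 gave -0.08, and dropping mutant replicate 1 gave -0.04.

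The kinases were measured most precisely, with 454 to 3796 counts per library. The gene gsk-3 (WBGene00001746, chromosome I, 12819216 to 12825602, plus strand), whose product phosphorylates beta-catenin in the destruction complex, stood at 32.3, 33.3 and 37.5 CPM in wild type and at 36.9, 32.3 and 32.4 CPM in the mutant. The ranges coincided almost exactly. Its log2 fold change of -0.02 ± 0.16 (adjusted p = 0.977) had a 95% interval of the fold from 0.774 to 1.26. The sign turned with small changes of setting, to 0.08 with library totals alone, and to 0.03, 0.07 and 0.06 without wild-type replicate 3, mutant replicate 2 and mutant replicate 3.

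The gene kin-19 (WBGene00002202, chromosome III, 4083994 to 4086636, minus strand) encodes the casein kinase 1 alpha that acts beside GSK-3. It had 105, 99.4 and 109 CPM in wild type and 79.7, 105 and 85.4 CPM in the mutant. Mutant replicates 1 and 3 lay below all wild-type libraries, and mutant replicate 2 lay among them. The log2 fold change was -0.21 ± 0.15 (adjusted p = 0.577, 95% interval of the fold 0.685 to 1.08). It was negative in every alternative run, from -0.28 to -0.10. The shares of muscle markers in mutant replicates 1, 2 and 3 were 7.34%, 3.37% and 3.64%, and the part of muscle content in the kin-19 values was not tested. With the muscle list genes left out of the counts the change was -0.18. That setting drops the marker genes alone and keeps any kin-19 reads from muscle cells, so it does not adjust for muscle content.

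The gene lit-1 (WBGene00003048, chromosome III, 13701991 to 13724404, plus strand) encodes the Nemo-like kinase that phosphorylates POP-1 with WRM-1 as its partner. It stood at 26.3, 23.2 and 28.0 CPM in wild type and at 28.2, 27.5 and 24.8 CPM in the mutant, so the groups overlapped. Its log2 fold change was 0.06 ± 0.17 (adjusted p = 0.929, 95% interval of the fold 0.803 to 1.35), and -0.02 without wild-type replicate 2. In the mutant the coefficient of variation of lit-1 was 6.85% and that of gsk-3 7.82%, against medians of 17.8% and 16.8% in genes within 2-fold of their levels. Above such medians in the mutant were pop-1 (37.99% against 30.8%), pry-1 (42.6% against 33.95%) and bar-1 (63.1% against 55.8%). In that group kin-19 lay close to its median (14.6% against 14.7%), and sys-1 and apr-1 lay below theirs. In wild type pop-1 (31.4% against 25.5%) and bar-1 (87.5% against 57.6%) lay above, and the other tested genes below.

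Because SYS-1 and POP-1 work as a pair whose balance sets the output of the asymmetry branch, ratios of partners were compared within each library, where scaling between libraries cancels. The sys-1 to pop-1 ratio of levels per length was 0.348, 0.304 and 0.525 in wild type and 0.764, 0.766 and 0.417 in the mutant. The groups overlapped, since wild-type replicate 3 lay above mutant replicate 3. The mean log2 ratio was higher by 0.71 in the mutant (exact permutation test, two-sided, p = 0.2; adjusted over 3 ratios p = 0.6). With 3 libraries against 3 this test cannot give less than 0.1.

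The wrm-1 to lit-1 ratio was 0.338, 0.351 and 0.280 in wild type and 0.310, 0.233 and 0.415 in the mutant, a difference in the mean log2 ratio of -0.05 (exact permutation test, two-sided, p = 0.9; adjusted p = 0.9). Of the mutant values 1 lay below, 1 among and 1 above those of wild type, and the sign turned without wild-type replicate 2 (0.01) or mutant replicate 2 (0.16). The bar-1 to pry-1 ratio was 0.254, 0.207 and 0 in wild type and 0.193, 0.132 and 0.367 in the mutant. Since bar-1 had a library at 0, its log2 ratio was taken on counts plus 1, and the mutant mean was higher by 1.26 (exact permutation test, two-sided, p = 0.7; adjusted p = 0.9). Without wild-type replicate 3, the library at 0, the difference was -0.12.

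The profile of sys-1, the gene with the smallest p of the 9, was compared with all tested genes by the root mean square difference of log2 CPM over the 6 libraries, after centring each gene. The 5 nearest were ucr-2.1, mmaa-1, atp-2, Y67D8C.9 and pak-1, at differences of 0.0510, 0.0583, 0.0755, 0.0855 and 0.09999. Of these, ucr-2.1 encodes a core subunit of respiratory complex III and atp-2 the beta subunit of the ATP synthase. They lay on chromosomes X, II, III, IV and X, and their log2 fold changes ran from 0.68 ± 0.19 (atp-2, adjusted p = 0.0610) to 0.83 ± 0.46 (Y67D8C.9, adjusted p = 0.423). None of the 5 passed the test. They were picked for likeness to sys-1 in these same 6 libraries, so fold changes near that of sys-1 follow from the choice. A shared function or regulation was not tested.

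Around these 10 genes, 45 of 51 other Wnt pathway genes found in the table were tested, and 3 were higher and 1 lower in the mutant, where 4.04% of all tested genes were higher and 1.55% lower. The 4 comprise 3 receptors and 1 Dishevelled gene. The receptor tyrosine kinase-like gene cam-1 (ROR family) went from 6.44 ± 1.04 to 18.3 ± 6.57 CPM (log2 fold change 1.51 ± 0.30, adjusted p = 0.0142). The Ryk receptor gene lin-18 went from 1.97 ± 1.201 to 8.81 ± 4.23 CPM (2.17 ± 0.49, adjusted p = 0.0261), and the Dishevelled gene dsh-1 from 12.3 ± 2.27 to 28.1 ± 8.08 CPM (1.19 ± 0.25, adjusted p = 0.0187). The Frizzled gene mom-5 went from 20.04 ± 2.87 to 10.6 ± 2.31 CPM (-0.92 ± 0.23, adjusted p = 0.0452). In the same libraries the summed share of the 10 muscle markers was 0.247% to 0.301% in wild type and 3.37% to 7.34% in the mutant, and that of the 6 coelomocyte markers 1.63% to 1.67% and 0.748% to 1.14%. The 6 hypodermis and seam markers took 0.00477% to 0.00934% and 0.0222% to 0.0354%, also without overlap. Most of these counts came from the cuticle collagen gene rol-6 (257, 379 and 349 in wild type, 3866, 1588 and 1021 in the mutant). It was higher in the mutant, 1 of the 3 tested. The others tested, elt-3 and bli-1, overlapped between the groups (adjusted p = 0.699 and 0.962). The defining marker dpy-7 had 0 counts in every wild-type library and 49, 0 and 1 in the mutant. The 5 pharynx markers took 0.00733% to 0.0169% and 0.0150% to 0.0601%, ranges that overlap, and 0 of the 4 tested were called (median log2 fold change 1.82). Neuron markers took 0.104% to 0.151% in wild type and 0.0858% to 0.111% in the mutant, ranges that overlap. The shares of the intestine, germline and sperm, and excretory lists overlapped as well. Among these lists and the neuron list, the only called gene was 1 of the 5 tested excretory markers, which was higher in the mutant. The part of any of these cell types in the values of the 4 Wnt pathway genes was not tested.

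These calls were not firm. The log2 fold changes kept their sign over the main fit and all alternatives. They ran from 1.27 to 1.81 (cam-1), 1.72 to 2.97 (lin-18), 1.04 to 1.43 (dsh-1) and -1.02 to -0.73 (mom-5). Without wild-type replicate 2 none of the 4 passed (adjusted p = 0.0529 for cam-1, 0.0705 for lin-18, 0.0702 for dsh-1 and 0.0680 for mom-5). Without mutant replicate 1 cam-1 (0.0528), lin-18 (0.118) and mom-5 (0.0916) did not pass. Also lost were dsh-1 (0.0728) and mom-5 (0.151) without wild-type replicate 3, lin-18 (0.0852) and mom-5 (0.1797) without wild-type replicate 1, dsh-1 (0.0530) without mutant replicate 2 and mom-5 (0.141) without mutant replicate 3. Dropping wild-type replicate 3 together with mutant replicate 2 ended the calls of cam-1 (0.0741), dsh-1 (0.115) and mom-5 (0.0934). The mom-5 call was also lost with DESeq2 size factors (0.0521), library totals alone (0.109), ribosomal RNA genes left out (0.0547), muscle list genes left out (0.0553) and a replicate block (0.0977).

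In the other roles no gene passed the test. Of the Wnt ligands, 3 of 5 were tested and the smallest p was that of cwn-2, at 0.581 ± 0.184 and 2.70 ± 1.33 CPM (log2 fold change 2.22 ± 0.64, adjusted p = 0.0747), which DESeq2 did call. Among 4 genes of ligand secretion it was snx-3, a sorting nexin that recycles the Wnt carrier (-0.65 ± 0.17, adjusted p = 0.0522), which DESeq2 and limma-voom did call. The gene plr-1, which lowers Frizzled receptors at the surface, was at 0.280 and 0.604 CPM (1.06 ± 1.37, adjusted p = 0.806).

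The gene hmp-2, which encodes the beta-catenin of cell adhesion, had 12.6 ± 1.09 CPM in wild type and 17.1 ± 3.41 in the mutant (0.44 ± 0.22, adjusted p = 0.367). For mom-4, a kinase gene that acts upstream of LIT-1, the change was -0.30 ± 0.38 (adjusted p = 0.803). Among 7 further casein kinase and PP2A genes the smallest p was that of kin-10, the regulatory subunit of casein kinase 2 (-0.64 ± 0.17, adjusted p = 0.0578), which DESeq2 called. For the ubiquitin ligase genes that remove beta-catenin it was cul-1 (-0.45 ± 0.26, adjusted p = 0.466), and for 6 nuclear co-regulators it was the acetyltransferase gene cbp-1 (-0.42 ± 0.17, adjusted p = 0.215).

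Of 10 genes known as Wnt targets in other C. elegans cells, 6 were tested and 0 called, nor did any of the 6 stand at an unadjusted p under 0.05. The smallest p was that of the Hox gene egl-5, which is also on the rectal and hindgut marker list. It stood at 1.28, 0.918 and 2.42 CPM in wild type and at 1.11, 4.98 and 2.66 CPM in the mutant. Its log2 fold change was 0.92 ± 0.63 with an adjusted p of 0.562. The targets tested stood between 0.360 CPM (lin-39) and 1.54 CPM (egl-5) in wild type, so changes in them were poorly resolved at this depth.

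**Figure D5:**
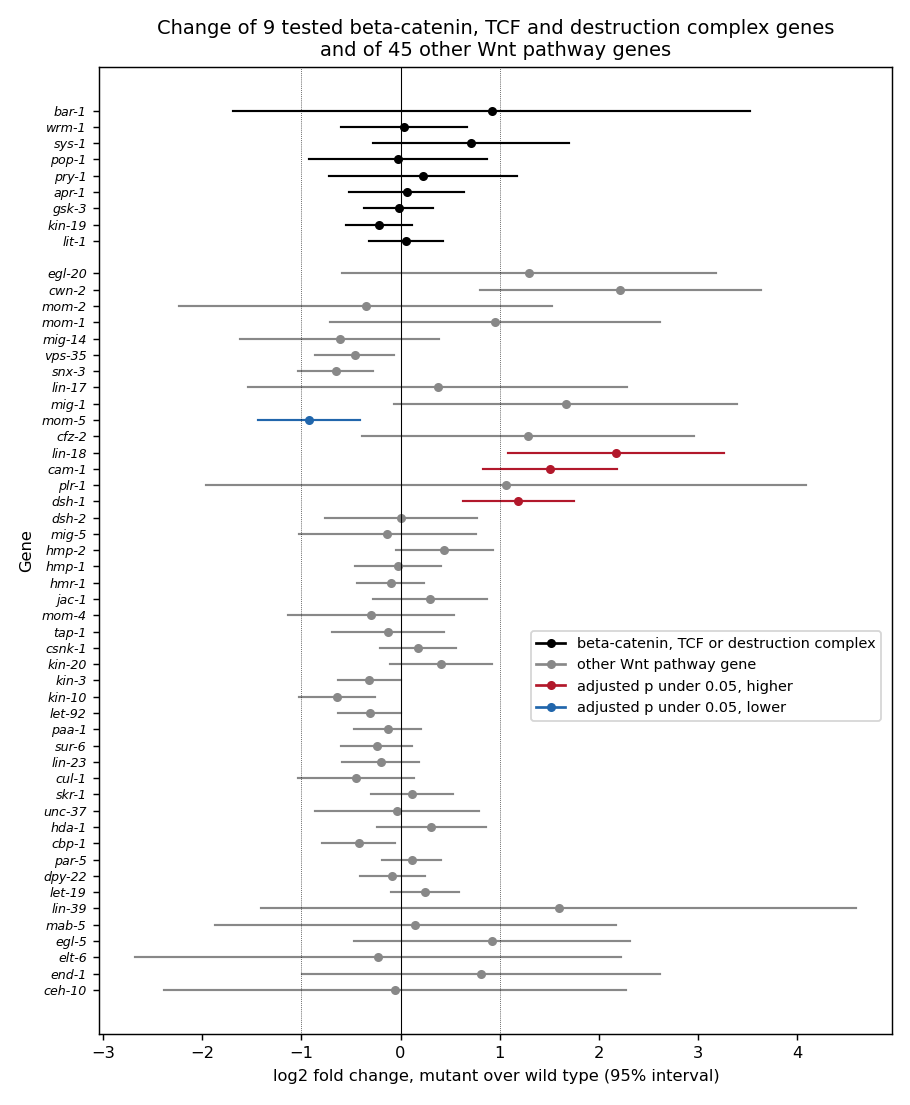
Log2 fold change (mutant over wild type) with its 95% interval for the 9 tested beta-catenin, TCF and destruction complex genes (black) and 45 other Wnt pathway genes (grey, or coloured where the adjusted p was under 0.05); dotted lines mark a 2-fold change. The intervals of the 9 genes all include 0, and cam-1, lin-18 and dsh-1 (red) and mom-5 (blue) are the genes past the threshold.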

How the data were processed

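RNA was sequenced from 6 libraries of sorted cells. The authors deposited 1 table of raw read counts per gene, and the submitters' processing notes list DESeq2, STAR, featureCounts, Subread (2.0.0) and fastp (0.20.1), in no order. The genome build, the annotation and the strand setting were not given in the sources used here. Symbols, coordinates (1-based) and exon lengths were read from Ensembl release 115 of WBcel235, which holds 46919 of the 46932 identifiers. Groups came from the labels. No 2 libraries of the same group agreed within sampling noise (chi-square per degree of freedom at least 6.73 over genes).

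Genes were kept with filterByExpr (minimum count 10, total 15), scaled by TMM and tested on all 11968 genes with edgeR 4.0.16 (glmQLFit robust, glmQLFTest; R 4.3.3), group only, threshold 0.05 on the Benjamini-Hochberg adjusted p. CPM is relative to TMM-scaled totals, most of which are ribosomal RNA. Standard errors are the log2 fold change over the root of F, and 95% intervals use the same degrees of freedom. Ratios used exact permutation tests (scipy 1.17.1). Alternatives used DESeq2 1.42.0, limma 3.58.1 and the other settings named in the closing section. The fit was tested on simulated data. The members and lists were chosen with earlier results of these data known. Named are all 10 genes, csr-1, other Wnt pathway genes past the threshold or with the smallest p of their role, defining markers and the 5 nearest profiles. The further rectal and hindgut markers, rol-6, elt-3, bli-1 and the ends of a range were named after their values were seen. Of 52 other Wnt pathway names imb-4 was not matched and was not analysed here, nor was elt-5 among the markers. Limits from 0 counts (3 counts) cover counting error only, while the 95% intervals of the fold also include the fitted spread between libraries.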

Additional observations from a re-analysis of the deposited data

How the results depend on the processing

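Of the 9 genes tested, none was called in the alternatives in which it was tested (16 alternatives, 6 of which left out 1 library each; 5 genes were tested at 5 CPM in 3 libraries), and the smallest adjusted p over 140 values was 0.304. The gene axl-1 passed the filter in some alternatives and was not called in those. Of these values 22 had a sign opposite to the reported one, for 6 genes, with sizes up to 0.29. For pop-1 the log2 fold change was 0.048 with library totals alone, 0.012 without ribosomal RNA genes, 0.013 without muscle list genes and 0.042 without both libraries of fewest genes. For gsk-3 these were 0.077, 0.020, 0.021 and 0.12, with 0.0094 without a low-count filter and 0.078 with at least 5 CPM in 3 libraries. Leaving out single libraries gave ranges of 0.34 to 1.42 (bar-1), -0.078 to 0.25 (wrm-1), 0.43 to 0.95 (sys-1), -0.27 to 0.29 (pop-1), -0.10 to 0.57 (pry-1), -0.084 to 0.20 (apr-1), -0.075 to 0.073 (gsk-3), -0.28 to -0.12 (kin-19) and -0.021 to 0.16 (lit-1). The cause was not tested.

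Called over all genes were 669, against 1048 without a low-count filter, 1062 by DESeq2 and 416 to 697 without single libraries (416 and 422 when wild-type replicates 1 and 3 were dropped). Higher genes numbered 484, 727 without the filter and 573 with library totals alone. Lower genes numbered 185, 89 with library totals alone, 321 without the filter, 361 by DESeq2, 56 without both libraries of fewest genes and 39 to 151 without single libraries. Of the other Wnt pathway genes 4 were called, 7 by DESeq2, 1 without both libraries of fewest genes and 0 to 3 without single libraries. Log2 ratio differences without single libraries were 0.55 to 1.0 (sys-1 to pop-1), -0.26 to 0.16 (wrm-1 to lit-1) and -0.12 to 2.03 (bar-1 to pry-1).

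The labels do not say whether libraries with the same replicate number were prepared together. Deviations of same-numbered libraries correlated across genes at 0.037, -0.020 and -0.068, and wild-type replicate 1 correlated best with mutant replicate 3 (0.040). No shared deviation was thus seen, which does not settle how the libraries were prepared. With a replicate block 557 genes, 0 of the 9 tested genes and 3 other Wnt pathway genes were called. The ratio differences are the same with and without pairing by construction (0.71, -0.05 and 1.26). Depth limits bar-1, axl-1 and the target genes, with 0 to 62 counts per library for bar-1.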
